A study of Drosophila melanogaster with 12 samples.

Results

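Larvae lacking REPTOR were compared with control larvae after both had fed on rapamycin. The comparison rests on 6 of the 12 arrays of the series, chosen by their sample names, with 3 arrays of knockout larvae on rapamycin against 3 of control larvae on rapamycin. Per the labels, control larvae were w1118 and the others carried a REPTOR knockout. The kind of lesion and the number of independent lines are not given in the sources used here. All larvae were synchronised, labelled female, taken 48 h before wandering and fed for 6 h on food with 200 µM rapamycin. The other 6 arrays hold the same genotypes fed for 6 h on food with the ethanol vehicle, 3 arrays each, and serve here as the reference for what rapamycin adds. RNA came from whole larvae, so fewer cells of a type and less RNA per cell cannot be told apart. The series design calls the 3 arrays of a group biological replicates.

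TORC1 is the kinase complex that couples nutrients to growth in animal cells, and rapamycin inhibits it. REPTOR is a bZIP transcription factor of Drosophila that is kept out of the nucleus by TORC1-dependent phosphorylation and enters it when TORC1 activity is low. There it acts with its partner REPTOR-BP on genes that respond to TORC1 inhibition. The comparison asks which transcripts differ between the genotypes while TORC1 is inhibited.

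Levels are log2 processed signals relative to the 75th percentile of the same array, so a level of 0 lies at that percentile. A difference is the knockout mean minus the control mean on rapamycin food, in log2 units, with the standard error of the model. A target was called when its adjusted p in limma (Benjamini-Hochberg over all 18757 targets tested, two-sided) was under 0.05. Most targets carry only a clone or transcript name, and 147 of those tested carried a gene symbol that is not a bare CG or CR number. No probe matched REPTOR or REPTOR-BP, so the targeted gene could not serve as a check of the genotypes.

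The arrays differed in ways other than genotype. On rapamycin food the non-coding RNA roX2, part of the male dosage compensation complex, stood at -8.74, -8.68 and -1.29 on the control arrays and at 0.01, -1.10 and -5.83 on the knockout arrays. It was thus raised, taken as within 16-fold of its highest array, on control array 3 and on knockout arrays 1 and 2, although all samples are labelled female. Knockout array 3 was not raised by that rule but had roX2 well above background, which control arrays 1 and 2 had not. roX1, the other RNA of the complex, showed the same 3 arrays high, at 3.35, 3.88 and 2.91, against -0.47 to 0.43 on the other rapamycin arrays. The 67 targets named by adult testis cDNA clones stood in the median at -2.85, -2.0 and -3.22 on the raised arrays and between -5.17 and -4.79 on the other 9 arrays of the series. Knockout arrays on rapamycin all came from slide 3, whereas control arrays came from slides 1 and 2, so no slide holds both groups. On ethanol food the control arrays all came from slide 1 and the knockout arrays from slides 2 and 3. No slide thus holds both genotypes on the same food, and the ethanol comparison has the same limit. Markers of larval fat body, salivary gland, midgut, muscle, nervous system, ovary and female tissue were matched by no probe, and tissue make-up was not checked.

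**Figure D1:**
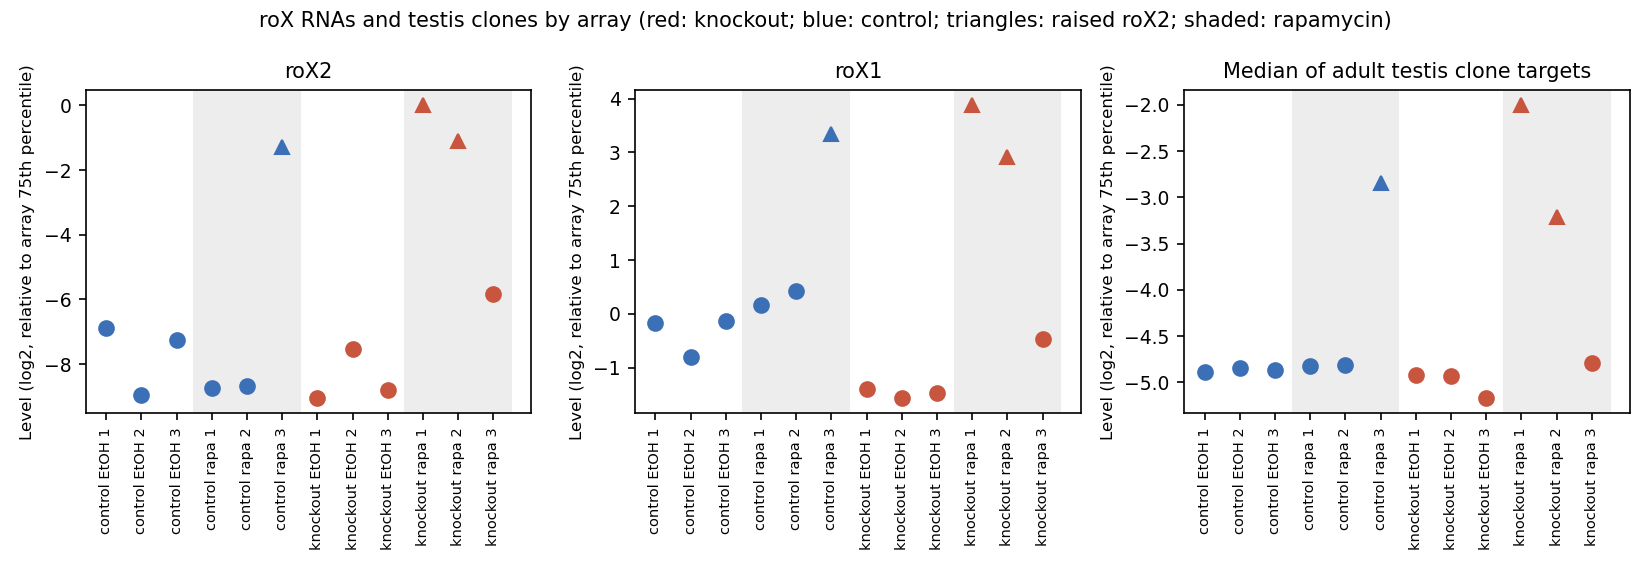
Levels (log2, relative to the 75th percentile of the array) of roX2, roX1 and the median of 67 adult testis clone targets on each of the 12 arrays, control in blue and knockout in red. EtOH is ethanol food and shading marks rapamycin food (rapa). Triangles mark the 3 arrays with raised roX2, control 3 and knockout 1 and 2, which lie above all other arrays in each panel.

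On rapamycin food, knockout larvae had lower levels of the peptidase-like gene Nepl4, the TORC1 regulators mio and Wdr59 and the lipase gene Hsl, among others. They had higher levels of cuticle genes, of the secretory factor CrebA and of the laminin gene LanA. Across all targets, 5226 of 18757 (27.9%) differed, with 2420 (12.9%) higher and 2806 (15.0%) lower in the knockout. A difference of at least 2-fold was found for 406 higher (2.16%) and 630 lower (3.36%). The median difference was 0.48 among the higher calls and -0.60 among the lower ones, and 0.01 over all targets tested. Among the 5226 called targets, 5178 had all arrays of one genotype above all arrays of the other, which 44.8% of all tested targets also had (20.8% higher and 24.0% lower in the knockout). With arrays centred on their median, 385 were higher and 1280 lower, a share of 23.1% higher against 46.3%, and the median of all targets moved to -0.13. With slide as a fixed block, linked through the ethanol arrays, 788 were called. That block kept the calls of 1 of the 12 highest and 9 of the 12 lowest differences with a symbol, and median centring kept 2 and 11. The higher calls named above were thus less stable than the lower ones.

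**Figure D2:**
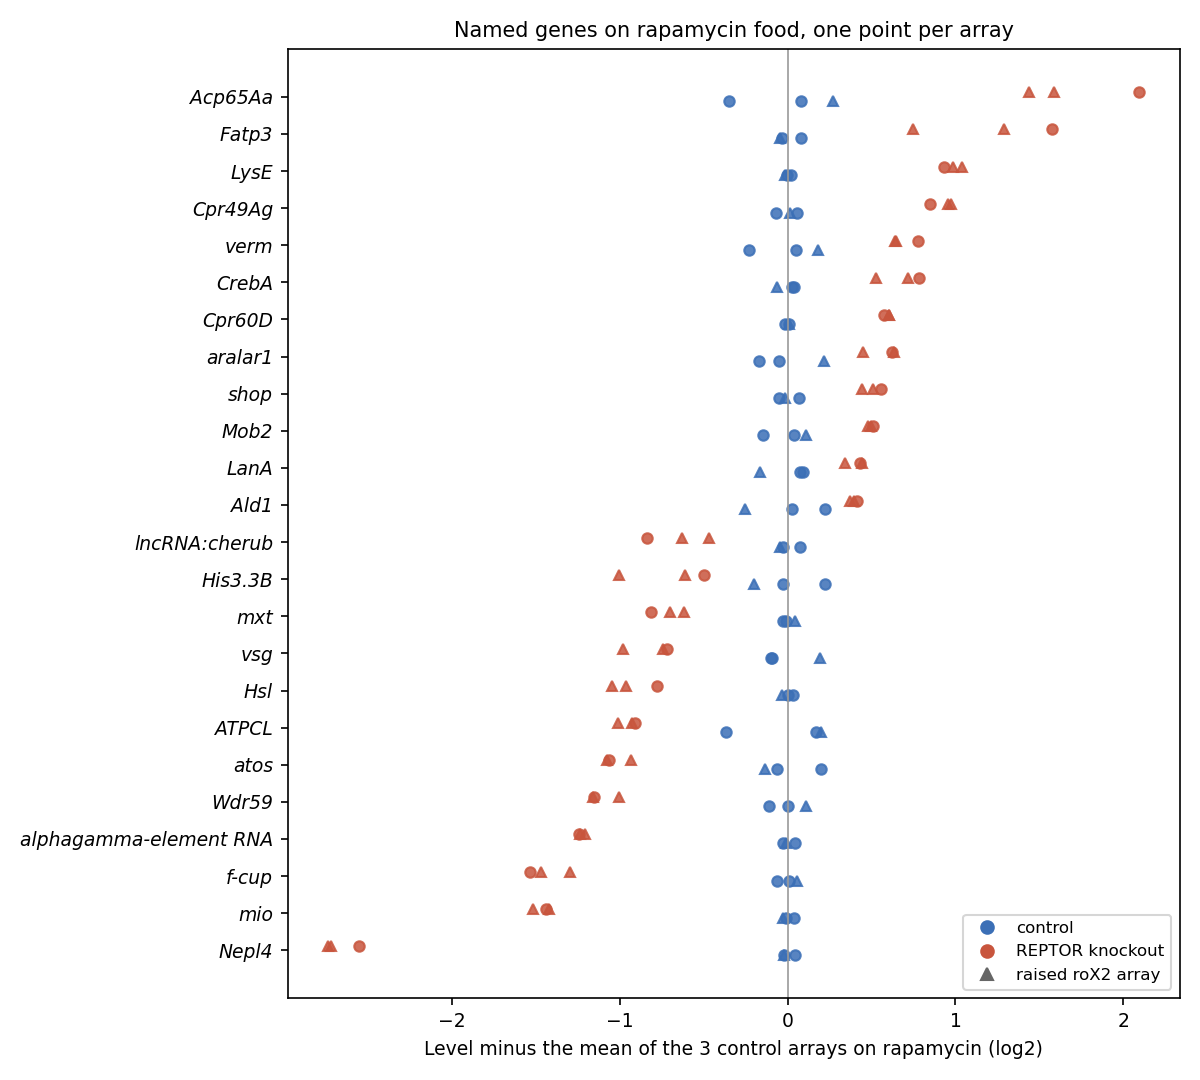
Levels of 24 named genes on each of the 6 rapamycin arrays, minus the mean of the 3 control arrays (log2), with controls in blue, knockouts in red and triangles for arrays with raised roX2. The genes are the 12 highest and 12 lowest differences with a symbol, from -2.67 for Nepl4 to 1.71 for Acp65Aa, and the arrays of the genotypes do not overlap, which was part of the choice.

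Of the 147 genes with a symbol, 16 were called higher and 28 lower, together 29.9% against 27.9% of all targets. The largest decrease was in Nepl4, a neprilysin-like member of the M13 metallopeptidases. Its level was 2.5, 2.43 and 2.43 on the control arrays and -0.28, -0.27 and -0.10 on the knockout arrays. Every knockout array was low and every control array high, a difference of -2.67 ± 0.12 (6.37-fold lower, adjusted p = 7.7e-07). On ethanol food the genotypes differed by 0.09 ± 0.12 (adjusted p = 0.72). Rapamycin changed Nepl4 by 3.16 in controls (adjusted p = 2.6e-07) and by 0.40 in the knockout (adjusted p = 0.054). Nepl7, the other measured neprilysin-like gene, differed by 0.34 ± 0.15 (adjusted p = 0.12).

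Within the TORC1 pathway list, 2 of 3 measured members were lower in the knockout and 0 higher, against 15.0% and 12.9% of all targets. All 3 are subunits of GATOR2, a complex that favours TORC1 activity by opposing the inhibitory GATOR1 complex. This list was chosen with earlier results of these data known, so its counts are not a test of enrichment. The mio transcript stood at 2.11, 2.15 and 2.08 in controls and at 0.69, 0.60 and 0.67 in the knockout. The groups were far apart for their spread, with a difference of -1.46 ± 0.06 (adjusted p = 3.6e-07), and a second mio probe gave -1.54. For Wdr59 the levels were -0.24, -0.12 and -0.02 in controls and -1.13, -1.29 and -1.28 in the knockout, a difference of -1.11 ± 0.11 (adjusted p = 6.9e-05). Wdr24 was not called, with a difference of -0.03 ± 0.11 (adjusted p = 0.85). Neither called subunit differed on ethanol food at the threshold, mio by 0.06 ± 0.06 (adjusted p = 0.60) and Wdr59 by 0.23 ± 0.11 (adjusted p = 0.21). Rapamycin changed mio by 1.51 in controls and by -0.01 in the knockout (adjusted p = 2.6e-07 and 0.93). For Wdr59 the changes were 1.71 and 0.37 (adjusted p = 3.1e-06 and 0.046).

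Among genes of lipid use, Hsl and ATPCL were lower in the knockout and Fatp3 was higher. Hsl, hormone-sensitive lipase, which releases fatty acids from stored lipid, stood at 0.35, 0.39 and 0.32 in controls and at -0.70, -0.61 and -0.42 in the knockout. Its difference was -0.93 ± 0.08 (adjusted p = 3.5e-05), against 0.02 ± 0.08 on ethanol food (adjusted p = 0.90). ATPCL, ATP citrate lyase, which makes cytosolic acetyl-CoA for fatty acid synthesis, differed by -0.95 ± 0.18 (adjusted p = 0.0040). Its controls ran from -5.08 to -4.51 and its knockouts from -5.72 to -5.62, near the dim end of the array. Each of these genes was the only measured member of its list, lipid mobilisation and lipid synthesis. Fatp3, of the fatty acid transport protein family, stood at 1.77, 1.66 and 1.64 in controls and at 2.44, 2.98 and 3.27 in the knockout, a difference of 1.20 ± 0.19 (adjusted p = 0.0013) that a second probe gave as 1.20. On ethanol food Fatp3 differed by 0.49 ± 0.19 (adjusted p = 0.14).

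Single members of other growth-related lists were also called lower. The translation factor list held mxt, an eIF4E-binding protein, at -2.86, -2.88 and -2.81 in controls and -3.55, -3.47 and -3.66 in the knockout. Its difference was -0.71 ± 0.08 (adjusted p = 0.00017), and it was 0.07 ± 0.08 on ethanol food. The autophagy list held Atg10, an E2-like enzyme for Atg12, with controls from 1.15 to 1.26 and knockouts from 0.88 to 1.01. That difference of -0.25 ± 0.06 (adjusted p = 0.0084) was small, its second probe gave -0.10, and the mean of both probes was not called. CtsB, the lysosomal protease cathepsin B, differed by -0.48 ± 0.14 (adjusted p = 0.030), while Vha13, a subunit of the vacuolar ATPase, differed by 0.06 ± 0.09 (adjusted p = 0.62). CtsB was not called once raised roX2 was in the model (adjusted p = 0.062).

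Few genes for making proteins were measured. Against 27.9% of all targets, none of 4 cytosolic and 3 mitochondrial ribosomal protein genes was called, with median differences of -0.13 and -0.07 against 0.01 for all targets. The largest of the cytosolic ones was -0.17 ± 0.11, in RpS7 (adjusted p = 0.28). Rrp42, a core subunit of the RNA exosome and the only ribosome biogenesis gene measured, was lower by -0.51 ± 0.12 (adjusted p = 0.0093), with controls from -0.87 to -0.83 and knockouts from -1.40 to -1.32. Of 7 snoRNA genes and hosts, Uhg3 was lower (-0.53 ± 0.15, adjusted p = 0.024) and 6 were not called. None of 5 spliceosomal RNAs was called, and lists this short leave a count of 0 uninformative. Among them U12 of the minor spliceosome came nearest at 0.32 ± 0.11 (adjusted p = 0.053). TrpRS, which charges the tryptophan tRNA, was higher by 0.33 ± 0.11 (adjusted p = 0.044), and not called with roX2 in the model (adjusted p = 0.085).

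All 3 measured members of the list of transcription factors of stress and metabolism were called, 2 lower (atos and cnc) and 1 higher (CrebA), against 15.0% and 12.9% of all targets. The list was chosen with earlier results of these data known, so its count is not a test of enrichment. The gene atos, or atossa, which encodes a regulator of metabolic genes known from macrophages, was at -2.55, -2.29 and -2.63 in controls and at -3.57, -3.42 and -3.56 in the knockout. Its difference was -1.03 ± 0.11 (adjusted p = 0.00013), and other probes of atos gave -1.05 and -0.70. The bZIP factor cnc, the fly relative of Nrf2, differed by -0.35 ± 0.08 (adjusted p = 0.013), with controls from -3.59 to -3.48 and knockouts from -3.93 to -3.80. Further lower calls were not members of a list and were picked from the called symbols. Among them caps, a leucine-rich repeat membrane protein, differed by -0.58 ± 0.06 (adjusted p = 9.4e-05). The pseudokinase gene Madm was lower by -0.56 ± 0.08 (adjusted p = 0.0010), and puc, the phosphatase that restrains JNK signalling, by -0.49 ± 0.12 (adjusted p = 0.015). Others lay between -0.63 and -0.39, namely the TGF-beta family ligand gene myo, the channel gene Trpm, the homeobox gene otp, MESK2 and the protein kinase A subunit gene Pka-R2. Of these, myo was not called with roX2 in the model (adjusted p = 0.065).

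The next lower calls had mixed roles. Of these, f-cup, vsg and His3.3B were among the 12 lowest, and Fen1 and His4:CG33907 were not. The gene f-cup, known for late transcription in the testis, stood at 1.23, 1.29 and 1.35 in controls and at -0.01, -0.18 and -0.24 in the knockout. Its difference was -1.43 ± 0.07 (adjusted p = 1.0e-06). It was the only gene measured of the testis list. The effect of raised roX2 on f-cup was 0.12 (adjusted p = 0.55). The 3 raised arrays sat with their own genotype, as the choice of genes without overlap required. The sialomucin gene vsg differed by -0.81 ± 0.13 (adjusted p = 0.0016), with means of -4.64 in controls and -5.45 in the knockout, near the dim end of the array. His3.3B, which encodes the replacement histone H3.3, differed by -0.71 ± 0.14 (adjusted p = 0.0041). Fen1, a flap endonuclease of DNA replication, was lower by -0.51 ± 0.12 on rapamycin (adjusted p = 0.011) and by -0.51 ± 0.12 on ethanol (adjusted p = 0.041). The probe of the repeated gene His4:CG33907 (-0.50 ± 0.12, adjusted p = 0.012) may also bind its near-identical copies.

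Higher levels in the knockout were led by cuticle genes. Of 5 measured cuticle and chitin genes, 4 were higher and 0 lower, against 12.9% and 15.0% of all targets, with a median difference of 0.69 against 0.01. This list too was chosen with earlier results of these data known, so its counts are not a test of enrichment. Cpr49Ag, a chitin-binding cuticle protein gene, stood at 2.56, 2.69 and 2.65 in controls and at 3.61, 3.59 and 3.48 in the knockout. All knockout arrays lay above all controls, a difference of 0.93 ± 0.13 (adjusted p = 0.00078). Cpr60D, of the same family, stood at 5.84, 5.87 and 5.87 against 6.46, 6.47 and 6.43, a difference of 0.60 ± 0.10 (adjusted p = 0.0016). On ethanol food these genes differed by -0.13 ± 0.13 and 0.08 ± 0.10 (adjusted p = 0.60 and 0.65). Rapamycin changed Cpr49Ag by -0.96 in controls (adjusted p = 0.00033) and by 0.09 in the knockout (adjusted p = 0.67), and Cpr60D by -0.48 (adjusted p = 0.0028) and 0.03 (adjusted p = 0.85).

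The other cuticle genes showed more spread. Acp65Aa, a cuticle protein gene best known from the adult, ran from -3.34 to -2.72 in controls and from -1.55 to -0.90 in the knockout. It differed by 1.71 ± 0.32 (adjusted p = 0.0037) on rapamycin and by 1.36 ± 0.32 (adjusted p = 0.042) on ethanol. The gene verm, which encodes a chitin-modifying protein of the trachea and cuticle, differed by 0.69 ± 0.17 (adjusted p = 0.015). The chitin-binding gene obst-B differed by 0.24 ± 0.09 (adjusted p = 0.077). With arrays centred on their median, 2 of the 5 were called higher.

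CrebA, a bZIP factor that raises expression of secretory pathway genes, was at -1.46, -1.44 and -1.54 in controls and at -0.96, -0.76 and -0.70 in the knockout. The difference of 0.68 ± 0.07 (adjusted p = 0.00013) lay well outside the spread of either group. A second, dimmer CrebA probe gave 0.19, and the gene was not called when its probes were averaged. LanA, the laminin alpha chain of basement membranes, stood at 3.69, 3.68 and 3.43 against 3.94, 4.05 and 4.03, a difference of 0.41 ± 0.09 (adjusted p = 0.0073). It was the 1 gene called of 3 measured extracellular matrix genes. Rapamycin changed CrebA by -0.67 in controls and by -0.17 in the knockout (adjusted p = 7.2e-05 and 0.14), and LanA by -0.40 and 0.06 (adjusted p = 0.0050 and 0.65).

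Other higher calls had varied roles. LysE, a gut lysozyme gene, was at 1.09, 1.06 and 1.05 in controls and 2.05, 2.11 and 2.0 in the knockout (0.98 ± 0.25, adjusted p = 0.017). Its probe may also bind near-identical lysozyme genes. The mitochondrial aspartate-glutamate carrier gene aralar1 differed by 0.57 ± 0.14 (adjusted p = 0.015), while FeCH, ferrochelatase of haem synthesis, differed by -0.02 ± 0.06 (adjusted p = 0.88). The glycolytic gene Ald1, aldolase, was higher by 0.39 ± 0.12 (adjusted p = 0.037), with controls from -2.0 to -1.53 and knockouts from -1.38 to -1.34. The sulfite oxidase gene shop differed by 0.50 ± 0.16 (adjusted p = 0.046) and was not called with roX2 in the model (adjusted p = 0.065). Mob2, a kinase co-activator, differed by 0.49 ± 0.09 (adjusted p = 0.0027), and its second probe also gave 0.49. Smaller higher calls, of 0.28 to 0.36, were the choline kinase-like gene CHKov1, the chromatin remodeller gene kis and the zinc finger gene Cf2.

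**Figure D3:**
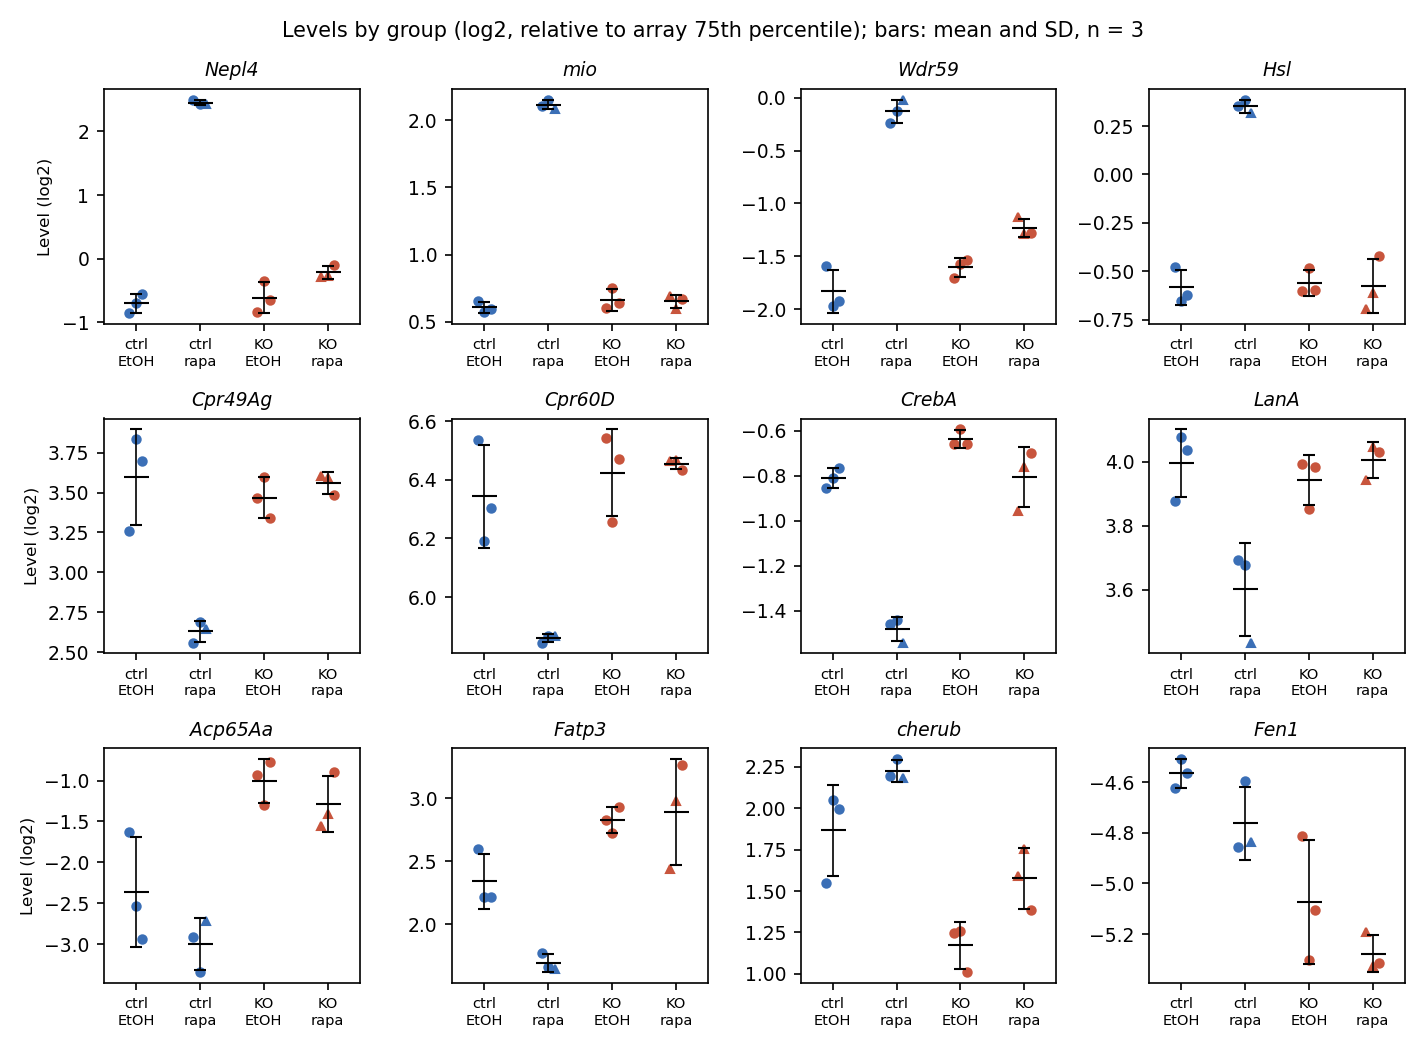
Levels (log2, relative to the 75th percentile of the array) of 12 genes in the 4 groups, control (ctrl, blue) and knockout (KO, red) on ethanol (EtOH) and rapamycin (rapa) food. Points are arrays, triangles mark raised roX2, and bars give the mean and SD of 3 arrays. Rapamycin-fed controls have the highest mean of the 4 groups for Nepl4, mio, Wdr59 and Hsl and the lowest for Cpr49Ag, Cpr60D, CrebA and LanA.

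Long non-coding RNAs were called lower more often than higher. Of 104 on the array, 52 were tested, of which 14 (26.9%) were lower against 15.0% of all targets, and 1 was higher against 12.9%. The median difference of the 52, which include roX1 and roX2, was 0.04, against 0.01 for all targets, so the list as a whole was not lower in this fit. With raised roX2 in the model the medians were -0.05 and -0.01, and with arrays centred on their median -0.09 and -0.13. The other 52 did not pass the filter on dim probes. With raised roX2 in the model 12 were lower, and with arrays centred on their median 7 were. lncRNA:CR43301 stood at -1.76, -1.60 and -1.69 in controls and at -3.05, -3.70 and -4.13 in the knockout, a difference of -1.94 ± 0.22 (adjusted p = 0.00017). lncRNA:CR43334 was at 0.69, 0.76 and 0.61 against -0.58, -0.37 and -0.66 (-1.22 ± 0.09, adjusted p = 9.6e-06), and on ethanol food it differed by -0.53 ± 0.09 (adjusted p = 0.016). Both lay lower on every knockout array. The bright lncRNA:CR42862 was at 6.58, 6.56 and 6.49 against 5.61, 5.81 and 5.76, a difference of -0.82 ± 0.08 (adjusted p = 6.3e-05), and its 4 other probes gave -1.04 to -0.88.

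Among better known non-coding RNAs, the alphagamma-element transcript lncRNA:alphagamma-element:CR32865, from the heat-shock gene cluster, differed by -1.23 ± 0.13 (adjusted p = 0.00011). Its controls ran from -3.48 to -3.41 and its knockouts from -4.70 to -4.66. lncRNA:cherub, known from neural stem cells, was at 2.19, 2.30 and 2.18 against 1.59, 1.75 and 1.38, a difference of -0.65 ± 0.14 (adjusted p = 0.0080). On ethanol food it differed by -0.69 ± 0.14 (adjusted p = 0.029). lncRNA:CR9162 differed by -1.71 ± 0.32 (adjusted p = 0.0034), but its second probe gave 0.15. The call that was higher was lncRNA:CR44042 (0.77 ± 0.09, adjusted p = 0.00018), which was also higher on ethanol food (0.53 ± 0.09, adjusted p = 0.016). Of 35 antisense RNAs tested, 4 were higher (11.4%) and 2 lower (5.71%), against 12.9% and 15.0% of all targets. One of those higher was asRNA:CR44069, at -7.27, -6.52 and -7.21 in controls, of which 1 was well above background, and at -5.64, -5.53 and -5.48 in the knockout (1.45 ± 0.19, adjusted p = 0.00041). The size rests on control signals mostly at background, and the call was lost with normexp background correction (0.23, adjusted p = 0.98) and in the deposited value table (0.47, adjusted p = 0.068).

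The extremes over all targets had no gene symbol in the table used. FBtr0084674 was at -0.58, -0.51 and -0.86 in controls and not well above background on any knockout array, at -9.55, -9.22 and -9.80. It was at least 97.3-fold lower in the knockout (adjusted p = 5.8e-09), and at least 60.2-fold lower on ethanol food. Such a bound sets the brighter mean against the lowest signal well above background on the dim arrays, or the own signal of the probe where that was higher. FBtr0087746 behaved otherwise, at 2.75, 2.88 and 2.69 in controls and at -4.47, -5.52 and -5.14 in the knockout, a difference of -7.82 ± 1.14 (adjusted p = 0.00082). On ethanol food it differed by 0.19 ± 1.14, with controls at -4.69, -5.24 and -1.95 and knockouts at -5.03, -0.97 and -5.30, so single ethanol arrays of both genotypes stood apart.

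In the other direction, the brightest probe of FBtr0070490 was not well above background on any control array and stood at -1.71, -1.30 and -1.18 in the knockout. By that probe it was at least 46.8-fold higher (log2 of 5.55, adjusted p = 9.8e-06), and at least 33.3-fold higher on ethanol food. Its second probe was well above background on all 6 rapamycin arrays, controls included. That probe gave a log2 difference of 2.69, below the bound, so the size depends on the probe. FBtr0087451 was at least 68.0-fold higher (adjusted p = 0.027), but its knockout arrays were spread over 1.32, -3.70 and -0.18. Its adjusted p was 0.064, 0.066 and 0.062 without control array 1, 2 or 3 and 0.083 and 0.072 without knockout array 1 or 3. Counting presence alone, 53 of 18757 targets were well above background on all 3 control arrays on rapamycin and on no knockout array there, and 94 showed the reverse. Of these, 41 and 47 were called, against 27.9% of all targets, as the choice by presence favours. On rapamycin, 72.5%, 73.6% and 82.7% of spots were well above background on the control arrays and 81.8%, 79.3% and 77.0% on the knockout arrays. Whether this unequal detection shaped the counts was not tested. Over all 12 arrays, 5 targets were present on every control array and no knockout array, and 11 showed the reverse, whatever the food. Presence here rests on the background flag of each array, and some of the 11 sat near background with levels that overlapped. On rapamycin TC244171 was at -7.06, -6.73 and -7.14 in the knockout and at -7.26, -6.92 and -7.09 in controls.

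Calls were then checked on arrays of like roX level. With a column for raised roX2 in the model, 4866 targets (25.9%) were called, 2250 higher (12.0%) and 2616 lower (13.9%). Of the 5226 calls above, 4532 (86.7%) were called again in the same direction, 694 were not, and 0 changed sign. In 5205 of the 5226, knockout arrays lay on one side of control arrays both among the raised arrays and among the others. The same held for 57.0% of all tested targets (27.2% higher and 29.8% lower). For the 5178 calls without any overlap between the genotypes this was fixed beforehand, so the count is no separate check. The roX2 column itself gave 771 higher targets (4.11%) and 7 lower (0.0373%). Of these, 26 were among the genotype calls of the same model, against 25.9% of all targets. In the model without that column 10 were (1.29%), against 27.9% of all targets. Both groups hold raised arrays, so a target that follows roX2 spreads within each group, which hinders a genotype call there. The low counts therefore do not measure the part of roX2 in the genotype calls. Without knockout array 3 on rapamycin the model with roX2 called 1748 targets, and without control array 3 it called 2311. Of the 67 testis clone targets, 18 (26.9%) were higher with raised roX2, against 4.11% of all targets. Between the genotypes 7 of the 67 were higher and 6 lower, against 12.9% and 15.0% of all targets.

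The raised and the other arrays share no sample, so each set can be asked about calls made on the other. Control arrays 1 and 2 against knockout array 3, together with the ethanol arrays, gave 2423 calls that could be measured in both sets. Of these, 2366 (97.6%) had the same direction in knockout arrays 1 and 2 against control array 3, compared with 78.0% of all targets. These sets still share the ethanol arrays, which set the spread but not the direction. Among the lower calls the median difference was -0.89 on the arrays that gave the call and -0.74 on the raised arrays, and among the higher calls 0.85 and 0.57. The raised arrays alone gave 1294 calls. Of these, 81.8% were called in the same direction on the other arrays, as were 43.7% of the calls of the other arrays on the raised ones. A lone array in a group was assumed to vary like the others.

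**Figure D4:**
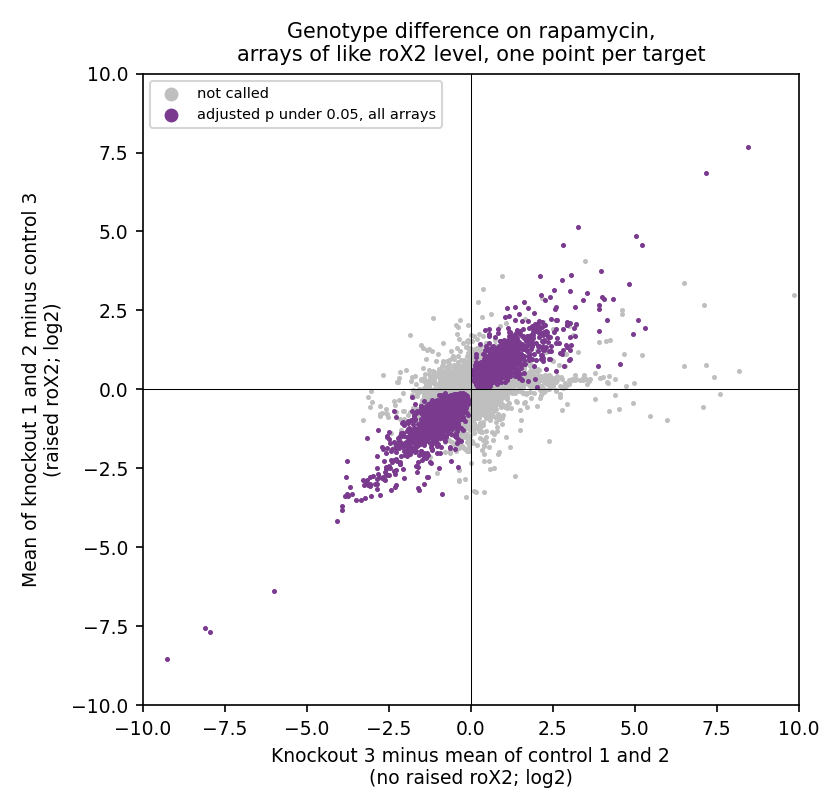
Genotype difference (log2) on arrays without raised roX2 (x axis, knockout array 3 minus the mean of control arrays 1 and 2) against arrays with it (y axis, mean of knockout arrays 1 and 2 minus control array 3), for 18757 targets. The 5226 targets called on all arrays (purple) lie mostly in the quadrants of like sign, as the choice by all arrays favours, and grey targets that are not called spread along both axes.

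The 24 genes with a symbol were chosen without overlap between genotypes, which fixes their direction in both sets of arrays, so only sizes are compared. Nepl4 differed by -2.71 on the raised arrays and by -2.56 on the others, mio by -1.44 and -1.46, f-cup by -1.44 and -1.50, and Wdr59 by -1.19 and -1.10. Of the 12 lowest genes, 12 were called with roX2 in the model, 10 without the raised arrays and 10 on the raised arrays alone. Of the 12 highest, 11, 4 and 1 were called under those settings. Cpr49Ag, 0.95 on the raised arrays and 0.86 on the others, and Cpr60D, 0.60 and 0.58, were not called on the raised arrays alone. With slide as a fixed block, 9 of the 12 lowest and 1 of the 12 highest, CrebA, were called. The lowest 3 that were not were ATPCL, His3.3B and lncRNA:cherub.

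Many of the calls above ended under another scaling or with slide in the model. Of all 5226 calls, 759 were called again in the same direction with slide as a fixed block and 1638 with median centring. Of 67 called genes and targets followed through the alternatives, 47 were not called with slide as a fixed block and 43 not with median centring. The 15 called under both settings were Nepl4, mio, Wdr59, Hsl, f-cup, atos, mxt, vsg, lncRNA:CR42862, lncRNA:CR43301, lncRNA:CR43334, lncRNA:alphagamma-element:CR32865, asRNA:CR44069, FBtr0070490 and FBtr0084674. Of these 15, atos, mxt, vsg, lncRNA:alphagamma-element:CR32865 and asRNA:CR44069 were not called with normexp background correction, nor was vsg without the raised arrays. Normexp kept 6 of the 12 lowest and 5 of the 12 highest genes with a symbol. The calls of Madm, puc, cnc, Rrp42, otp, MESK2, myo, Pka-R2, Fen1, CtsB, Atg10, Uhg3, His4:CG33907, LanA, Cpr60D, verm, Fatp3, Mob2, LysE and aralar1 ended under both, as did those of TrpRS, Ald1, shop, CHKov1, kis, Cf2, His3.3B and lncRNA:CR44042. Those of caps, Trpm and CrebA ended with median centring, and those of Cpr49Ag, Acp65Aa, ATPCL, lncRNA:CR9162, lncRNA:cherub, FBtr0087746 and FBtr0087451 with the slide block.

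Calls near the threshold depended on single arrays. Without control array 1, 2 or 3, CtsB had an adjusted p of 0.056, 0.10 and 0.0505, and without knockout array 1 or 2 it had 0.093 and 0.056. TrpRS was not called without 6 single arrays, 2 of them of ethanol-fed larvae (adjusted p from 0.059 to 0.13), nor shop without 8 (0.062 to 0.12) or Ald1 without 6 (0.051 to 0.10). Uhg3 and kis each lost their call without 4 single arrays (0.055 to 0.076 and 0.052 to 0.068), and myo, Cf2 and Pka-R2 without 3 (0.063 to 0.11, 0.057 to 0.091 and 0.052 to 0.056). The call of aralar1 was lost without control array 1 or 2 (0.056 and 0.051), that of verm without control array 2 or knockout array 3 (0.060 and 0.051), that of LysE without knockout array 2 (0.052) and that of puc without control array 3 (0.053).

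On ethanol food the genotypes differed at 1200 targets (6.40%), 546 higher (2.91%) and 654 lower (3.49%). These means come from other arrays than those on rapamycin, but the model shares 1 estimate of the spread over the 4 groups, and the 6 rapamycin arrays alone gave 4673 rapamycin calls. Calls in the same direction on both foods numbered 489, which is 9.36% of the rapamycin calls and 40.8% of the ethanol calls, and 82 had opposite directions. Of the rapamycin calls, 64.9% had the same sign on ethanol, against 59.1% of all targets. Among genes with a symbol, 3 were called on both foods, namely lncRNA:cherub, Fen1 and Acp65Aa. The difference between the foods was itself past the threshold for 2743 targets (14.6%). The ethanol share rested on single arrays, with 13.8%, 0.720% and 0.570% called without control ethanol array 1, 2 or 3, and 2.23% and 0.912% without knockout ethanol array 2 or 3. With slide as a fixed block 0.0533% were called on ethanol food.

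**Figure D5:**
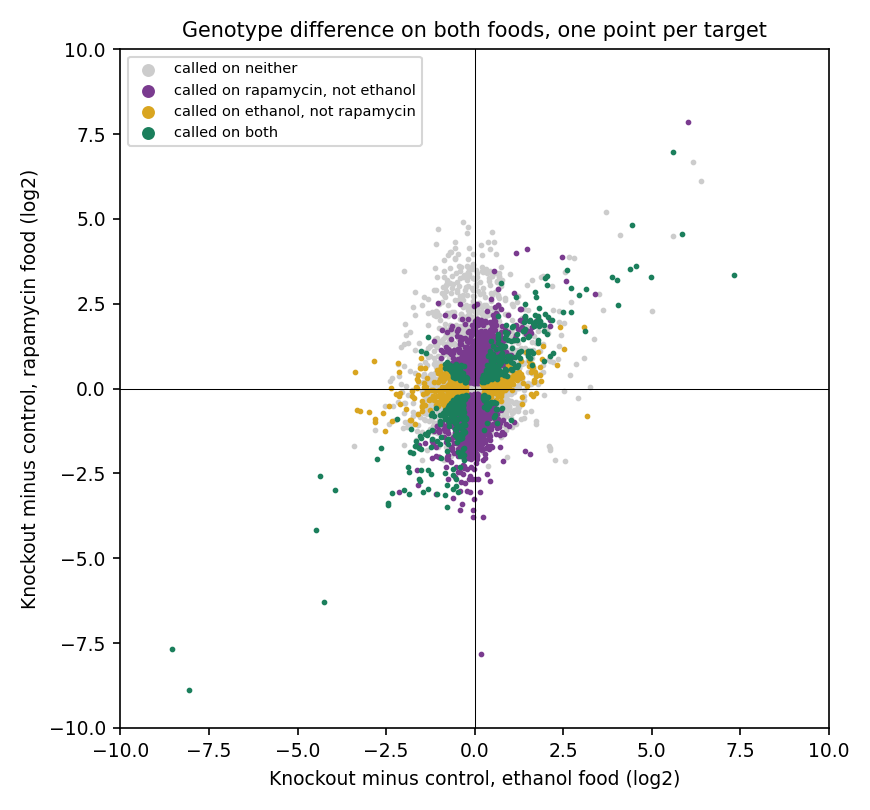
Genotype difference (log2, knockout minus control) on ethanol food (x axis) and on rapamycin food (y axis) for 18757 targets, coloured by the food on which the difference was called. Targets called on both foods (green) include 489 of like direction and 82 of opposite direction, and many targets called on rapamycin but not ethanol (purple) lie along the vertical axis.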

How the data were processed

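RNA of whole Drosophila melanogaster larvae was measured on 12 one-colour (Cy3) Agilent arrays, 3 per group. The deposited scanner files hold spot intensity, for which the submitters' processing notes name Agilent Feature Extraction 10.7, and the column used was the processed (background-subtracted) signal. The deposited value table, a normalised intensity on a linear scale whose making is not given in the sources used here, with column medians of 144 to 157, served as an alternative. Each array had 43602 non-control spots, 72.5% to 82.7% of them well above background and 0 saturated, so that precision is set by the number of arrays.

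The log2 signal was taken relative to the 75th percentile of each array. Outlier-marked spots were dropped and spots of a probe averaged. Of 32162 probes, 491 matched 1 symbol in the RefSeq gene table (Release 6 names), 3 several and 31668 none. A gene or target, 25842 in all, was read from its brightest probe, and tested if well above background on all 3 arrays of a group. For 24 targets an array value was missing and the fit left it out.

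The comparisons used limma 3.58.1 (R 4.3.3), with 1 model over 4 groups (8 residual degrees of freedom) and Benjamini-Hochberg adjustment. The roX check added a column for raised roX2. An exact permutation test of 3 arrays against 3 could not go below p = 0.1 and was not used. The code was tested on simulated data. Named genes were the 12 highest and 12 lowest differences with a symbol, past the threshold and without overlap between the genotypes, and the 2 highest and 2 lowest of all targets, with the 5 highest and 5 lowest of the roX fit, all of them already among these. Genes from lists and other called symbols were added as examples. Members and lists were chosen with earlier results of these data known. Alternatives covered scaling, background, filters, probe averaging, slide, replicate number, variance model and left-out arrays.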

Additional observations from a re-analysis of the deposited data

Results flagged for a closer look

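The genotype difference on rapamycin food was itself unlike that on ethanol food (difference of differences in limma, adjusted p under 0.05) for 15 of the 28 targets named by rule, 9 of them lower and 6 higher in the knockout, against 14.6% of all targets. These targets were chosen for their extreme rapamycin difference, which is 1 term of this difference, so the choice favours a high count. Among the lower ones, the difference of differences was -2.76 ± 0.17 for Nepl4 (adjusted p = 2.5e-05), -1.52 for mio, -1.34 for f-cup and -1.34 for Wdr59. It was -0.95 for Hsl, -0.89 for atos, -0.88 for lncRNA:alphagamma-element:CR32865, -0.78 for mxt and -8.01 ± 1.61 for FBtr0087746 (adjusted p = 0.010). Among the higher ones it was 1.05 ± 0.19 for Cpr49Ag (adjusted p = 0.0058), 0.73 for aralar1, 0.51 for Cpr60D, 0.50 for CrebA, 0.46 for Mob2 and 0.46 for LanA. All arrays are labelled female, yet roX2 was raised on 3 of them, the lowest of which stood at -1.29. Its part in the genotype differences was measured by the roX2 column and the split by roX2 level. Whether the 3 samples held male larvae was not tested.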

How the results depend on the processing

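The count of 5226 targets changed to 1665 with median centring, 1941 with normexp background correction (on the median signal, as the files hold no mean signal), 788 with slide as a fixed block, 2424 without the raised arrays and 1294 on the raised arrays alone, 3009 at an adjusted p under 0.01 and 1036 at 2-fold or more. Leaving out single arrays gave 3892 to 5534. With the roX2 column, 4866 became 2435 with median centring and 646 with slide as a fixed block, and 1748 to 4645 with an array left out, lowest without knockout array 3 (1748) and control array 3 (2311). On ethanol food, 6.40% of targets called became 0.640%, 0.0533% and 1.49% with median centring, the fixed slide block and the replicate block, and 0.570% to 13.8% with an array left out, lowest without control ethanol array 3 and highest without control ethanol array 1. The count of 2743 for the difference between foods became 329, 679, 617 and 981 with median centring, normexp, the fixed slide block and without the raised arrays, and 4994 and 4284 with slide as a random block (correlation -0.16) and array weights. The causes were not tested, except that stricter thresholds give fewer calls by construction. Replicate numbers did not pair the rapamycin samples (correlations -0.69, -0.21 and -0.82), and the replicate block gave 4431 calls, and 3952 with the roX2 column, an alternative added after seeing the data. No named gene changed direction in 1936 repeats over 67 targets, in 369 of which it lost its call. These targets were chosen from calls on the same arrays, which favours a kept direction. Where the genotypes do not overlap, leaving out an array cannot reverse it. The targets f-cup, Hsl, mio, Nepl4, Wdr59, lncRNA:CR42862, lncRNA:CR43301, lncRNA:CR43334, FBtr0070490 and FBtr0084674 kept theirs in all. Dim probes near background, 3 arrays a group and slides that do not hold both genotypes on the same food limit what can be told.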

Other observations

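Genes known only by a CG number, chosen here after their values were seen, held further large differences. CG9133 stood at -0.05, -1.21 and -0.38 in rapamycin-fed controls and at -2.90, -3.0 and -2.98 in the knockout, a difference of -2.41 ± 0.31 (adjusted p = 0.00039), and it differed by -1.31 ± 0.31 on ethanol food (adjusted p = 0.041). CG14265 differed by -1.79 ± 0.21 on rapamycin (adjusted p = 0.00025) and by -1.50 ± 0.21 on ethanol (adjusted p = 0.0092), so the knockout was lower on both foods. CG8204 was at 0.68, 0.72 and 0.77 against -0.51, -0.52 and -0.75 (-1.32 ± 0.13, adjusted p = 5.9e-05), and on ethanol food it differed by -0.17 ± 0.13 (adjusted p = 0.44). Of 128 genes with a bare number, 32 were called, against 27.9% of all targets.

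Other probes of the same gene or target gave a check on single probes. Of 1393 further probes of called targets, 1333 (95.7%) had the same direction as the probe used, against 79.5% of the further probes of targets that were not called. The immune peptide gene BomS6 had its 3 controls between -5.50 and -4.83 and its knockouts at -7.61, -7.00 and -4.50, of which only 1 was well above background. It was not called (adjusted p = 0.45).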
